A study of Homo sapiens with 9 samples.

Results

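Histone transcripts that carry a poly(A) tail, and so enter a poly(A)-selected library, were measured in MDA-MB-231, a human line of triple-negative breast cancer. The members were the features of the deposited table whose gene symbol starts with a name of the H1, H2A, H2B, H3 or H4 families, which gave 89 of 46846 features. By their symbols, 60 are replication-dependent genes, most of them in the clusters of chromosomes 6 and 1, and 9 are replacement genes. The rest are 12 germ line or other histone genes, 6 pseudogenes and 2 noncoding neighbours. The symbols cover MACROH2A and CENPA in none of these classes, since those names do not match. A mean of at least 10 over the 9 libraries, required for a test, was reached by 40 replication-dependent and all 9 replacement members.

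There were 3 groups of 3 libraries, all from the same cell line. Pladienolide B, an inhibitor of SF3b, the part of the U2 snRNP that holds the branch site during splicing, was given at 10 nM for 6 h. Indisulam, which brings the splicing factor RBM39 to a ubiquitin ligase for degradation, was given at 3.3 µM for 12 h. The DMSO cells served as the control and are labelled 12 h, so drug and time cannot be told apart when pladienolide B is set against DMSO. Doses and times also differ between the drugs.

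Replication-dependent histone genes make the bulk of the histones that package new DNA in S phase. Their mRNAs normally end without a poly(A) tail, in a stem-loop that is bound by SLBP and cut from the precursor with the help of the U7 snRNP, and most of these genes have no intron. A minority of their transcripts is polyadenylated at sites further downstream, and a poly(A) library sees mainly that minority. Replacement histone genes (H2A.Z, H3.3, H2A.X and the linker histone H1.10, among others) lie outside the clusters, are expressed through the cell cycle and give polyadenylated mRNAs. The gene of H2A.X gives mRNAs of both kinds.

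The stem-loop is shown because it is a trait of replication-dependent mRNAs, although the search made here did not separate the classes fully. The letters GG, any 3 bases, TTT, any 2 bases, A, any 3 bases and CC, with 6 paired stem bases, were searched on the transcript strand after the stop codon of GENCODE 29 transcripts. They were found in 24 of 59 replication-dependent coding genes (29 of the 59 have at least 20 bases annotated after the stop codon). Of the 9 replacement genes, all 9 with that many bases annotated, 1 had them, H2AX. Among other protein-coding genes the first 100 bases after the stop codon held it in 6 of 18236, or 0.0329%. Capitals mark the stem-loop, with up to 5 flanking bases on each side.
H2BC5: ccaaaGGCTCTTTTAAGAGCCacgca
H2AC6: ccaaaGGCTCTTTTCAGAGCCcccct
H2BC21: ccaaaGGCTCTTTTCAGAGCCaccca
H3C10: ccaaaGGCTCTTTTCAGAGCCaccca
H4C11: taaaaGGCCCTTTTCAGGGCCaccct
H4C14: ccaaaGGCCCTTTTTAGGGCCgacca
H2BC9: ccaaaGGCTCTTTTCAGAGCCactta
H2AX: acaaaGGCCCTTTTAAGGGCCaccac
One form, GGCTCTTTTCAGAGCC, was shared by 13 replication-dependent genes, and H4C14 and its copy H4C15 carried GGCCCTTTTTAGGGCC. Annotated sequence went on for 1114 bases past the loop in H2AC6, 1729 in H2BC21 and 1044 in H2AX, but for 6 bases in H4C11. H2BC9 has the loop and 1640 further bases and had no read in any library. A gene with no match here only lacks these letters in its annotated transcripts.

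Values are read counts that the authors divided by 1 size factor per library, called normalised read counts here. They are not divided by gene length, so they are compared between libraries and not between genes. The libraries held 59312100 to 83910831 reads. A count of 0 allows up to 3 reads, which is 2.48 to 3.87 in these units and covers counting error only. The line's markers were in place in part. Of those that should be present, VIM had a mean of 140909 and CD44 of 60461. Of those that should be absent or low, ESR1 (0.635) and PGR (0.186) were near 0 and CDH1 had 81.9. ERBB2, EPCAM and GATA3, at means of 5587, 1236 and 810, were not near 0. Of the leukocyte genes CD3E had a mean of 1.09, PTPRC of 10.8 and CD14 of 56.9. The deposited values summed to 1.39 times as much in the pladienolide B libraries as in the DMSO libraries, so counts of calls are also given with every library scaled to the same total.

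After pladienolide B the polyadenylated replication-dependent histone transcripts were higher. Summed over the 60 genes they gave 23990.5 ± 611 normalised read counts after pladienolide B, 13585 ± 602 after indisulam and 13122 ± 385 in DMSO (SD, n = 3 each). The pladienolide B sum was 1.83 times the DMSO sum and the indisulam sum 1.04 times. As a share of all values these were 0.0283% after pladienolide B, 0.0214% after indisulam and 0.0215% in DMSO. The replacement genes summed to 200729 ± 15280 after pladienolide B, 144631 ± 5212 after indisulam and 142517 ± 6785 in DMSO, a ratio of 1.41 for pladienolide B over DMSO, close to the 1.39 of the library totals. These sums come from poly(A) libraries of bulk RNA. They do not show the share of cells in S phase, the RNA per cell or the amount of histone RNA without a tail. The cause of the rise was not tested.

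Of the 40 replication-dependent genes tested, 30 rose after pladienolide B against DMSO and 0 fell (limma on log2(value + 1), adjusted p under 0.05 over 16846 features). Over all features, 34.3% were called higher and 35.5% lower, 69.8% in all. The median log2 fold change of the 40 genes was 0.87, against -0.01 over all features, and 39 of the 40 lay above that median. No member fell by another measure either: 32 were higher and 0 lower at an unadjusted p under 0.05, and 27 by edgeR and 31 by DESeq2 were called, all of them higher. For 30 members all pladienolide B libraries lay above all DMSO libraries, as for 35.5% of all features, and for 0 members they lay below, against 36.3% of all features. Scaled to the same total, the libraries gave 12 genes higher and 0 lower. That scaling divides each library by 1 number and moves the median of all features by -0.47. The distance of the histone median from it, 0.88, can hardly change under such a scaling and is no separate support.

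**Figure D1:**
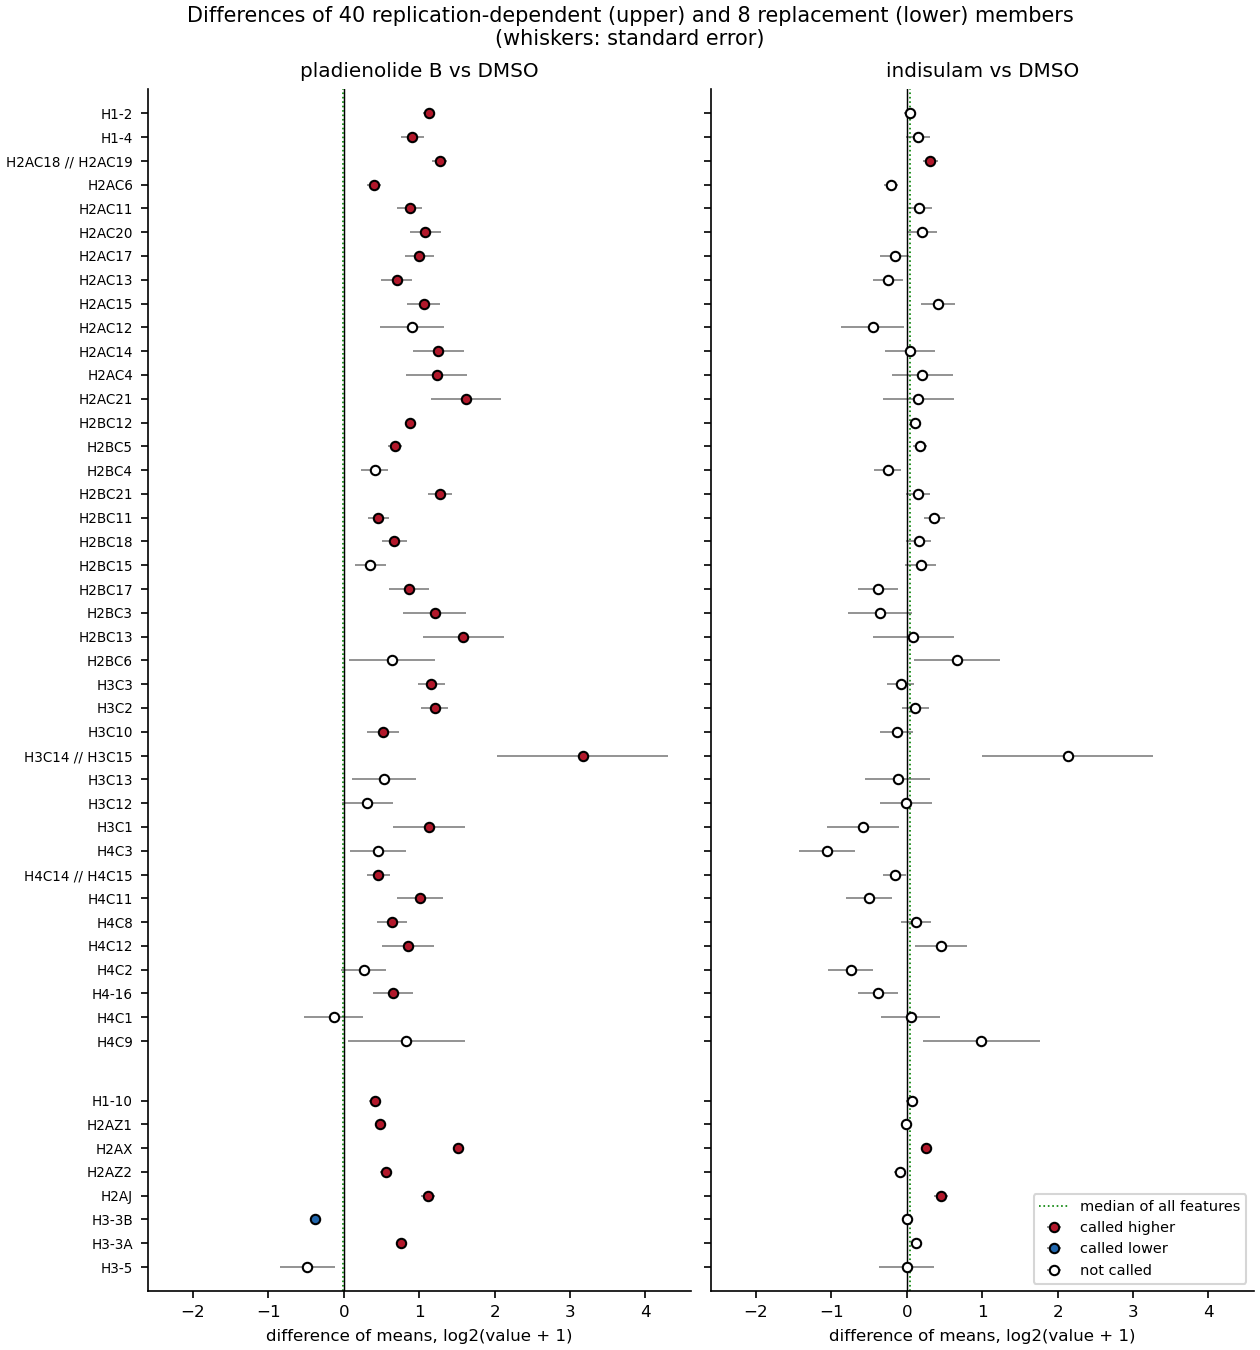
Differences of group means on the log2(value + 1) scale for the 40 replication-dependent members (upper block, by histone type) and 8 of the 9 replacement members (lower block), for pladienolide B against DMSO (left) and indisulam against DMSO (right). Whiskers are standard errors, filled points passed the test, and the dotted line is the median of all features. On the left 30 points of the upper block are filled and H4C1 alone lies below 0. On the right 1 point of the upper block is filled, along with H2AX and H2AJ in the lower block.

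Among the linker histones, which bind DNA between nucleosomes, both tested genes rose, beside 34.3% of all features. H1-2 (GSHG0037637, chr6:26055553-26056473, hg38) had 4057, 4162 and 3997 after pladienolide B, 1830.1, 1879.6 and 2045 after indisulam and 1842, 1979.7 and 1780.1 in DMSO. The pladienolide B libraries stood far above the other 6, which overlapped each other. The log2 fold change against DMSO was 1.13 ± 0.0692 (SE; limma adjusted p = 6.8e-09). H1-4 had 493, 460.4 and 578 after pladienolide B, 311, 277 and 310.3 after indisulam and 248, 227 and 348 in DMSO, with no overlap between pladienolide B and DMSO. Its log2 fold change was 0.91 ± 0.158 (limma adjusted p = 0.00015). The other replication-dependent linker genes, H1-1, H1-3 and H1-5, had no read in any library.

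Of the H2A genes, whose products pair with H2B in the nucleosome, 10 of 11 tested rose, beside 34.3% of all features. The exception, H2AC12, did not overlap DMSO but missed the threshold. The feature H2AC18 // H2AC19 (GSHG0002967, chr1:149851061-149851624) joins a pair of near-identical copies whose reads cannot be assigned apart. It had 1385, 1466 and 1634 after pladienolide B, 782, 731 and 791 after indisulam and 564, 615 and 678 in DMSO. All 3 groups were separate, in that order. The log2 fold change for pladienolide B was 1.27 ± 0.0962 (limma adjusted p = 4.82e-08). H2AC6 (GSHG0036450, chr6:26124138-26139108) had 1097, 1227 and 1261 after pladienolide B, 736, 831 and 772 after indisulam and 937, 839 and 934 in DMSO. Here the indisulam libraries were the lowest, and DMSO lay between the drugs. The log2 fold change of H2AC6 for pladienolide B was 0.40 ± 0.0906 (limma adjusted p = 0.00129), and with the same total per library it was -0.07 and not called. H2AC21 had low values, with 31.1, 46.4 and 22.8 after pladienolide B, 11, 14.2 and 8.36 after indisulam and 8.38, 6.6 and 16.3 in DMSO. Its log2 fold change for pladienolide B was 1.63 ± 0.465 (limma adjusted p = 0.00654).

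Of the H2B genes, 8 of 11 tested rose, beside 34.3% of all features. H2BC12 (GSHG0037662, chr6:27138294-27146858) took between 36.4% and 41.1% of the summed replication-dependent values of a library, over a feature of 8565 bp, in which GENCODE annotates 381 exonic bases. It had 8736, 9544 and 9084 after pladienolide B, 5364, 5194 and 5552 after indisulam and 4904, 5069 and 4938 in DMSO. Pladienolide B stood apart from the other groups, and indisulam lay just above DMSO without overlap. The log2 fold change of H2BC12 was 0.88 ± 0.0562 for pladienolide B (limma adjusted p = 1.03e-08) and 0.11 for indisulam (limma adjusted p = 0.164). Without H2BC12 the summed ratio of pladienolide B over DMSO was 1.82. H2BC5 had 1347, 1665 and 1414 after pladienolide B, 1049, 1024 and 1048 after indisulam and 894, 885 and 980.2 in DMSO, again 3 separate groups. Its log2 fold change for pladienolide B was 0.68 ± 0.0907 (limma adjusted p = 1.39e-05).

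H2BC4 had 455, 504 and 523 after pladienolide B, 233, 349 and 371 after indisulam and 318, 354 and 453 in DMSO. Pladienolide B did not overlap DMSO, but the log2 fold change of 0.41 ± 0.176 missed the threshold (limma adjusted p = 0.0523) and passed it without indisulam replicate 1 (0.0194), without indisulam replicate 3 (0.0475), without DMSO replicate 3 (0.0191) and by DESeq2 (0.0372), but not by edgeR with TMM (0.116) or without any other library. With the same total per library H2BC4 was at -0.06 (limma adjusted p = 0.774). H2BC13 had 44.1, 49 and 55.8 after pladienolide B, 22, 12.2 and 17.8 after indisulam and 24.3, 4.95 and 30.6 in DMSO. Its log2 fold change of 1.58 ± 0.535 (limma adjusted p = 0.017) was 0.84 without DMSO replicate 2, the library with 4.95, and then not called (limma adjusted p = 0.0652).

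**Figure D2:**
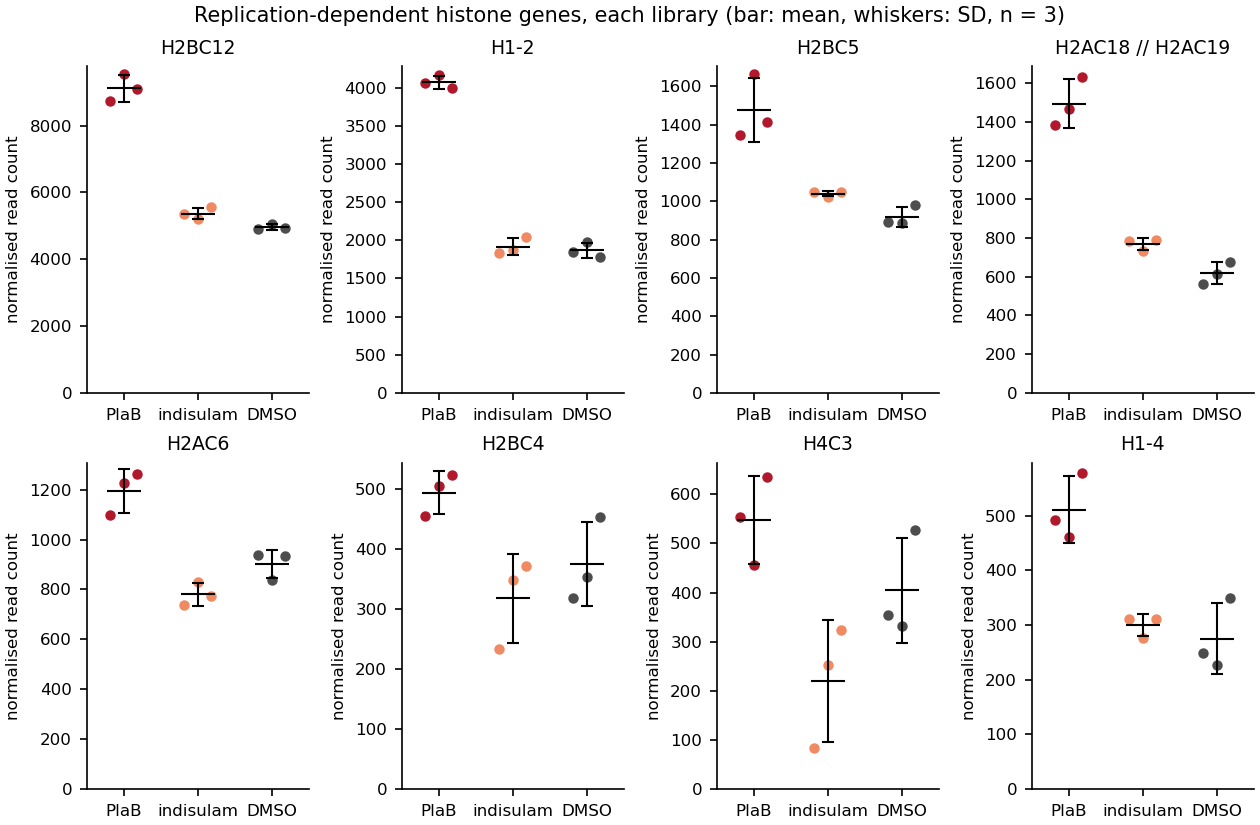
Normalised read counts of the 8 replication-dependent members with the highest mean, 1 panel a gene, with a point for each library, a bar for the group mean and whiskers for the SD (n = 3). Pladienolide B libraries lie above both other groups in every panel except H4C3, where they overlap DMSO. In the H4C3 panel indisulam replicate 1 lies far below the rest, at 83.4.

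Of the H3 genes 5 of 7 tested rose, beside 34.3% of all features. The largest fold change of the class was that of H3C14 // H3C15 (GSHG0002966, chr1:149852604-149854274), again a pair of copies, with 133, 236 and 78.6 after pladienolide B, 48.5, 75 and 77.3 after indisulam and 62.8, 53.6 and 0 in DMSO. The 0 of DMSO replicate 3 sets its size: the log2 fold change was 3.17 ± 1.13 (limma adjusted p = 0.023) with that library and 1.21 (limma adjusted p = 0.0151) without it. DESeq2 gave 1.95 and did not call it (adjusted p = 0.144), and limma did not call it without pladienolide B replicate 1 (adjusted p = 0.051) or 2 (adjusted p = 0.0764). H3C1 had 46.2, 21.9 and 44.4 after pladienolide B, 16.5, 10.1 and 6.27 after indisulam and 25.1, 11.6 and 13.2 in DMSO. Its call against DMSO (log2 fold change 1.13 ± 0.477, limma adjusted p = 0.0483) was lost under 11 of 20 alternatives, with adjusted p-values of up to 0.226 (the same total per library). Among these were leaving out pladienolide B replicate 1 (0.144), pladienolide B replicate 3 (0.129), indisulam replicate 2 (0.0576), DMSO replicate 2 (0.147) or DMSO replicate 3 (0.122).

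Of the H4 genes 5 of 9 tested rose, beside 34.3% of all features. Their median log2 fold change was 0.64, against 1.02 for H1, 1.06 for H2A, 0.68 for H2B and 1.13 for H3. The differences between types were not tested. H4C3 had 553, 457 and 634 after pladienolide B, 83.4, 253 and 324 after indisulam and 354, 332 and 528 in DMSO. Pladienolide B overlapped DMSO, and the log2 fold change of 0.46 ± 0.37 was not called (limma adjusted p = 0.289). It was called without indisulam replicate 1 (limma adjusted p = 0.0448), and with the same total per library it was at -0.02 and not called. H4C11 had 571, 257 and 282 after pladienolide B, 77.9, 143 and 156 after indisulam and 157, 215 and 149 in DMSO. Pladienolide B lay above both other groups, which overlapped each other, and its log2 fold change of 1.01 ± 0.306 against DMSO was called (limma adjusted p = 0.00926), but not without pladienolide B replicate 1, the library with 571 (log2 fold change 0.65, limma adjusted p = 0.0519). H4C1 was the only tested member of the class with a negative value, -0.13, which was not called.

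Reads did not come from the whole of the chromosome 6 clusters. A run of 14 neighbouring histone features from H4C4 to H2BC10 (chr6:26188710-26273412, 84703 bp) held 29 reads over the 9 libraries together. In it 8 features had no read, and the highest value of any histone feature in any library was 4.95. The 5 other features in this span, which are not histone features, had means of at most 0.225. The run lies between H2BC6, with a mean of 10.2, and H4C8, with a mean of 201. A run of 4 features from H2AC16 to H4C13 (chr6:27865256-27873534) had no read at all, between H2BC15 with a mean of 144 and H3C12 with a mean of 27.1. At the start of the cluster H2AC1, H2BC1, H2AC2P and H1-1 had none either. Of the 60 replication-dependent genes 13 were at 0 in every library, and of the 20 that were not tested H2BC14 had the highest mean (7.87, highest value 13.4). The others reached at most 4.95.

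**Figure D3:**
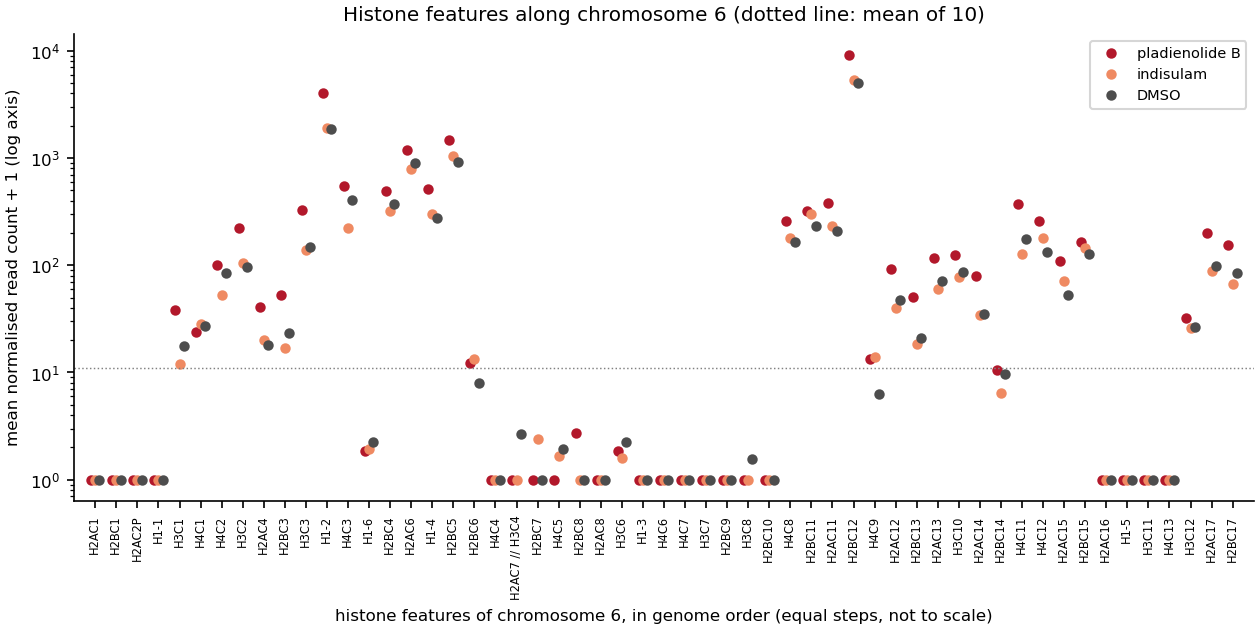
Mean normalised read count plus 1 (log axis) of the histone features of chromosome 6 in genome order, in equal steps, for the 3 groups (points). The dotted line marks a mean of 10. The run of 14 features from H4C4 to H2BC10 and the run of 4 from H2AC16 to H4C13 lie near or at the floor in all groups, between neighbours with means of 10.2 to 201.

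The promoters of these genes also share short motifs. In RefSeq windows (GRCh38.p14) of 250 bases before to 50 after the start, each motif was searched on both strands, and matches may overlap. TATAAA was found in 39 of 58 replication-dependent windows (67.2%), against 12.0% of all 27305 windows. CCAAT was found in 49 of 58, against 35.7% of all windows, but in 3 of 12 of the H4 windows. The octamer ATTTGCAT was found in 13 of 16 H2B and 9 of 13 H2A windows, against 1.80% of all windows. TTTCCCGC, a form of the E2F site, was in 1 of 58 and in 1.66% of all windows. Of the 7 replacement windows, 4 held TATAAA, 6 CCAAT and 1 the octamer. The bases before the start are shown for the H2B gene with most reads, an H2B gene of chromosome 1, H2AX, and both H3.3 genes, which moved in opposite directions. Capitals mark the TATA motif, the CCAAT motif and the octamer on either strand.
H2BC12 (chr6:27146859-27147108, minus strand): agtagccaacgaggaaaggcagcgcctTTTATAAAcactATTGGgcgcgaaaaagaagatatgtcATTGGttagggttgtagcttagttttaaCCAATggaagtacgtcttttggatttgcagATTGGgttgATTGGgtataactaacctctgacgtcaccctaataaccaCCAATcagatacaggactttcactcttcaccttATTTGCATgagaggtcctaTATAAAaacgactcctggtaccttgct
H2BC21 (chr1:149886683-149886932, minus strand): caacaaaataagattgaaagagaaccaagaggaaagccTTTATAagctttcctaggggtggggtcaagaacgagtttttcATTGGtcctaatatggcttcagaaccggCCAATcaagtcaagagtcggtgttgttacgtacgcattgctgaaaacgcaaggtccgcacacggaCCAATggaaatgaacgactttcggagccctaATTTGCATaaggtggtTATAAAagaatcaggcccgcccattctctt
H2AX (chr11:119095466-119095715, minus strand): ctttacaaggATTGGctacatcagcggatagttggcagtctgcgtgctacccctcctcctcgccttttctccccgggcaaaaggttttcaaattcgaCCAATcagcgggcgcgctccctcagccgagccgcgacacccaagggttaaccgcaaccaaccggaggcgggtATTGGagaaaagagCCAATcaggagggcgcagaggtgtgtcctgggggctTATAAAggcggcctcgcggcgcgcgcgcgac
H3-3A (chr1:226061581-226061830, plus strand): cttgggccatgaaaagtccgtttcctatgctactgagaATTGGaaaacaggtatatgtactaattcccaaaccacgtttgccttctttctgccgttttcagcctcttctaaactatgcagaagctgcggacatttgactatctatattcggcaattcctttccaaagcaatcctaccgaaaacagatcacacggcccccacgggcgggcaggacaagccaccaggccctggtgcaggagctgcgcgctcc
H3-3B (chr17:75779780-75780029, minus strand): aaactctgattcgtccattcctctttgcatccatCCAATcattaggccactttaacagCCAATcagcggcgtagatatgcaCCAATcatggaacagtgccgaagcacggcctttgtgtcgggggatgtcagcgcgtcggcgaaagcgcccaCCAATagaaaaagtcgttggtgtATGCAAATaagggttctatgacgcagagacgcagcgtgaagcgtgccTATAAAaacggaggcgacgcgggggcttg
H2BC21, the second H2B gene shown, had log2 fold changes of 1.28 ± 0.16 for pladienolide B (limma adjusted p = 6.92e-06) and 0.15 for indisulam (limma adjusted p = 0.525). H3-3A shows 1 CCAAT in these bases, and H3-3B shows 4 CCAAT, the TATA motif and the octamer.

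Most tested replication-dependent genes have 1 exon in GENCODE, which matched 56 of the 60 features. Of the 26 tested genes with 1 exon, 20 rose after pladienolide B and the median log2 fold change was 0.96. Of the 10 with a transcript of 2 or more exons, which include H2BC5, H2AC6 and H2BC4, 6 rose and the median was 0.46. Single-exon protein-coding genes outside the histones had 146 of 218 tested higher and 22 lower, with a median of 0.82. Multi-exon ones had 4035 of 12166 higher and 4966 lower, with a median of -0.10. With the same total per library these medians were 0.49 and -0.01 for the histone genes with 1 exon and with more, 0.35 for other single-exon genes and -0.57 for multi-exon ones. The 1-exon histone median was thus near that of other single-exon genes after pladienolide B, and the difference was not tested. For indisulam against DMSO the 1-exon histone median was 0.05, with 0 of 26 called. Other single-exon genes then had a median of 0.22, with 72 of 218 higher and 3 lower. The sets are not defined alike. Exons were counted over all transcripts for histone genes, but over protein-coding transcripts for other genes. H3C12 and H4C14 // H4C15, with 1 exon in coding transcripts and 2 in others, therefore count among the genes with more exons.

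**Figure D4:**
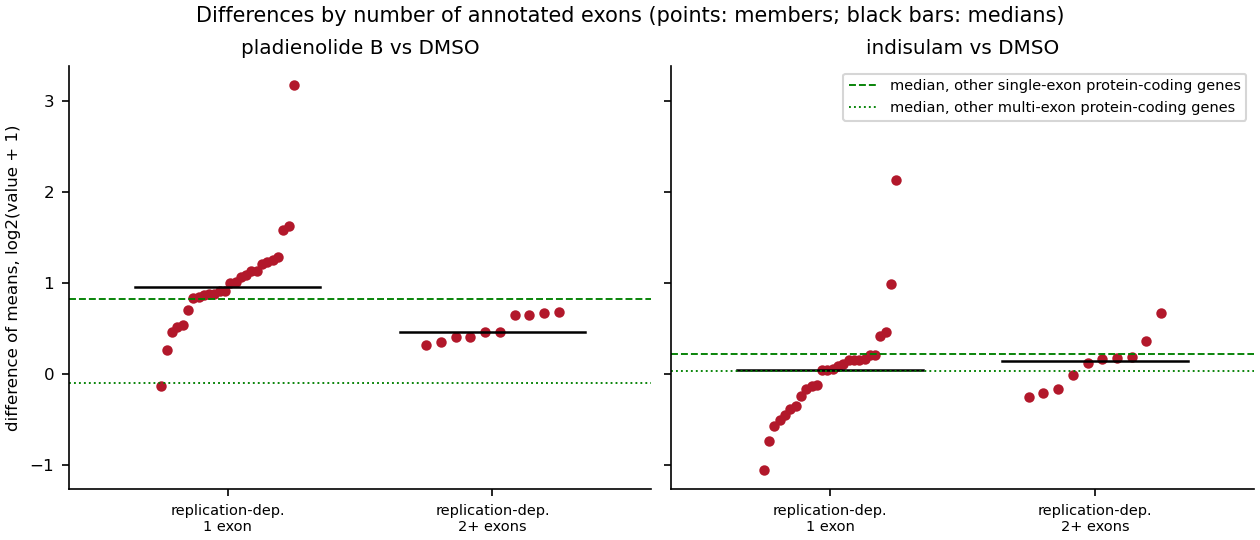
Differences of group means on the log2(value + 1) scale by number of GENCODE exons, for pladienolide B against DMSO (left) and indisulam against DMSO (right). Points are tested replication-dependent members, black bars are medians, and the green lines are the medians of other single-exon (dashed) and multi-exon (dotted) protein-coding genes. On the left the medians of replication-dependent genes are 0.96 with 1 exon and 0.46 with more. On the right they are 0.05 and 0.14, and the green lines there lie at 0.22 (single-exon) and 0.03 (multi-exon).

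Replacement histone genes did not move as a block. After pladienolide B against DMSO, 6 of 9 rose, 1 fell and 2 were not called. Over all features 34.3% were called higher and 35.5% lower. The median log2 fold change of the 9 replacement genes was 0.48. Scaled to the same total, 3 were called higher (H2AX, H2AJ and H3-3A) and 3 lower, and the median was 0.01. With quantile normalisation the median was 0.15. Values varied little between libraries of a group: the median coefficient of variation was 9.64% after pladienolide B, 5.57% after indisulam and 5.82% in DMSO. Replication-dependent genes had 18.5%, 17.2% and 19.9%, but most have far fewer reads, where counting error is larger, so the classes are not compared at like depth. H3-5, a replacement gene with low values, had 34.8% in DMSO.

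H2AX (GSHG0008323, chr11:119093874-119095467), the variant phosphorylated at DNA breaks, had 53266, 65409 and 55131 after pladienolide B, 24326, 24537 and 23507 after indisulam and 19594, 21027 and 19864 in DMSO. All 3 groups were separate. The log2 fold change was 1.52 ± 0.0695 for pladienolide B (limma adjusted p = 4.71e-10) and 1.04 with the same total per library. For indisulam it was 0.26 ± 0.0695 (limma adjusted p = 0.0142), a call lost without indisulam replicate 2 (0.0526), DMSO replicate 1 (0.0556) or DMSO replicate 3 (0.0507). H2AX is also the replacement gene with the stem-loop printed above.

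H2AJ (GSHG0008827, chr12:14774405-14778002), an H2A variant known to accumulate in senescent cells, had 4523, 4572 and 3768 after pladienolide B, 3035, 2467 and 2615 after indisulam and 2129, 1909 and 1892 in DMSO. These groups were also separate. The log2 fold change was 1.11 ± 0.0945 for pladienolide B (limma adjusted p = 1.49e-07) and 0.45 ± 0.0945 for indisulam (limma adjusted p = 0.00346). The H2A.Z genes, whose product marks nucleosomes beside transcription start sites, rose less. H2AZ1 had 45599.5, 48142 and 42921 after pladienolide B, 32041, 34008 and 30975 after indisulam and 32590.0, 34549 and 30753 in DMSO, a log2 fold change of 0.48 ± 0.0613 for pladienolide B (limma adjusted p = 8.42e-06). H2AZ2 had 17158, 16221 and 14182 after pladienolide B, 10828, 9892 and 9557 after indisulam and 11279, 10581 and 10440.0 in DMSO, with 0.55 ± 0.0731 (limma adjusted p = 1.19e-05). Indisulam and DMSO overlapped for both. With the same total per library the H2AZ1 and H2AZ2 differences were 0.01 and 0.08 and not called, and with quantile normalisation H2AZ1 was at -0.09.

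The H3.3 genes encode the same protein, the H3 variant whose deposition is not tied to DNA replication. H3-3A (GSHG0046090, chr1:226061831-226072019) had 10348, 10332 and 9233 after pladienolide B, 6483, 6781 and 6083 after indisulam and 6216, 5869.8 and 5619 in DMSO. It rose by a log2 fold change of 0.76 ± 0.0664 (limma adjusted p = 2.12e-07). H3-3B (GSHG0019635, chr17:75775461-75779779) had 28905, 32238 and 29681 after pladienolide B, 37261, 41649 and 39281 after indisulam and 38975, 41158 and 38091 in DMSO. It fell by 0.38 on the log2 scale, with an SE of 0.0595 (limma adjusted p = 5.88e-05), and with the same total per library it fell by 0.85. Pladienolide B libraries lay above all others for H3-3A and below all others for H3-3B. Of the summed values of the pair, which no scaling of whole libraries changes, H3-3A made up 24.8% ± 1.39 after pladienolide B, 14.1% ± 0.709 after indisulam and 13.0% ± 0.655 in DMSO (SD, n = 3 each). H3-5, a primate gene for a related H3, was low, with 16.1, 20.6 and 17.8 after pladienolide B, 33, 24.3 and 20.9 after indisulam and 18.4, 24.8 and 36.7 in DMSO, and was not called.

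H1-10 encodes a linker histone of the replacement class. H1-10 (GSHG0031741, chr3:129314771-129316286) had 9149.6, 10546 and 8819 after pladienolide B, 7815, 7683 and 6910.1 after indisulam and 7301, 7445 and 6653 in DMSO. It rose by a log2 fold change of 0.41 ± 0.0765 (limma adjusted p = 0.000272), but was at -0.06 and not called with the same total per library.

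**Figure D5:**
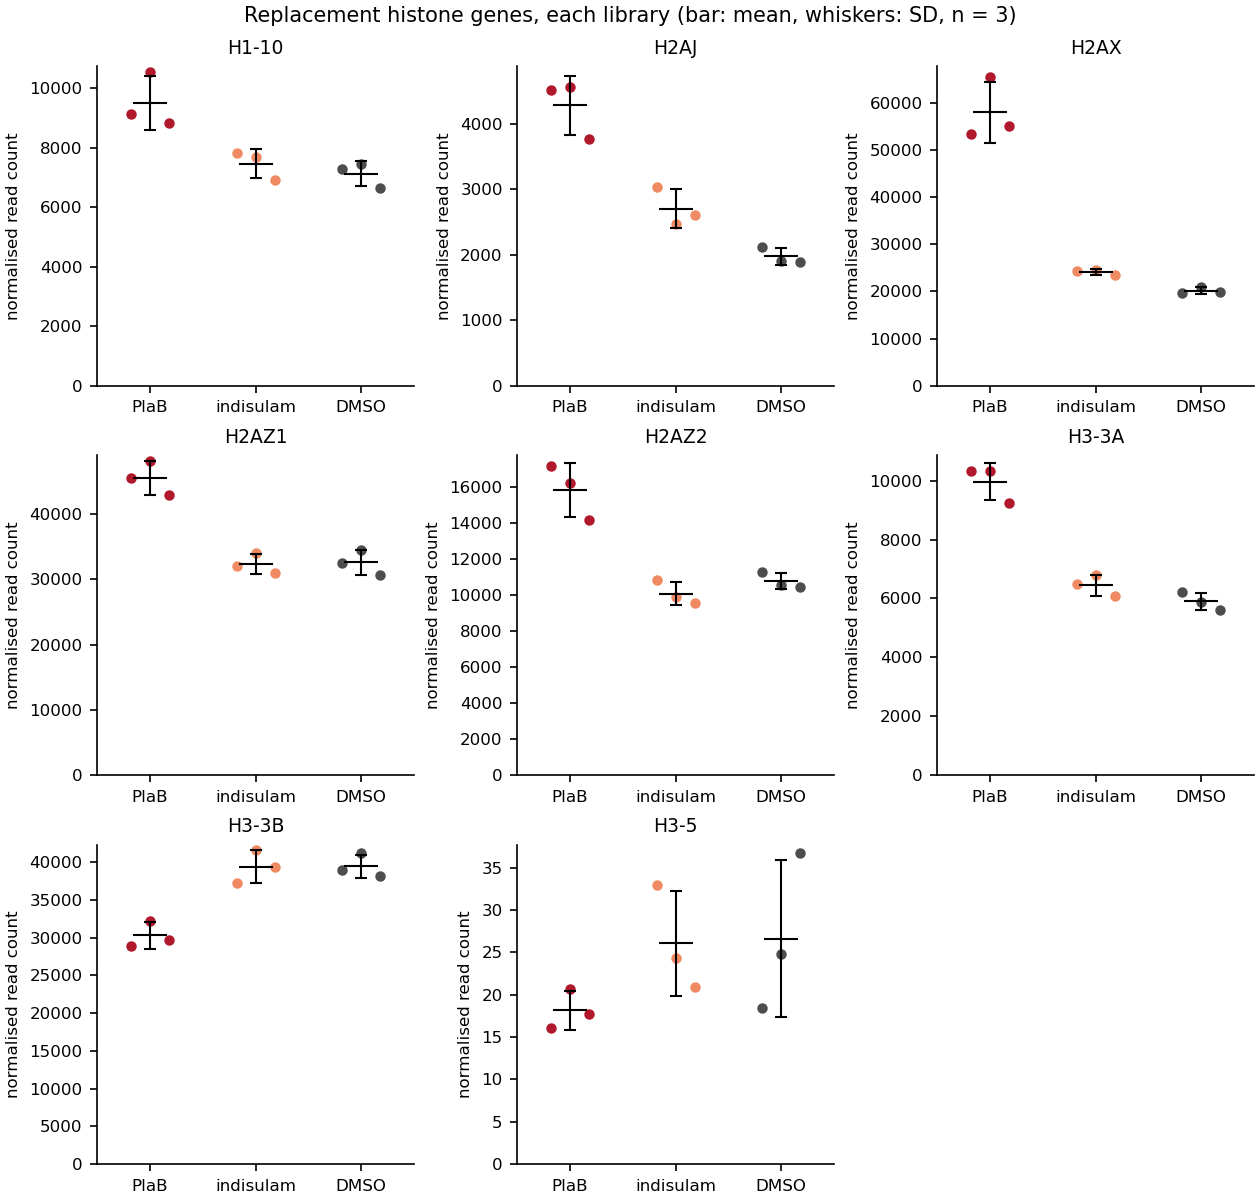
Normalised read counts of 8 of the 9 replacement members, 1 panel a gene, with a point for each library, a bar for the group mean and whiskers for the SD (n = 3). Pladienolide B libraries lie above both other groups for H2AX, H2AJ, H2AZ1, H2AZ2, H1-10 and H3-3A and below them for H3-3B. For H2AX and H2AJ indisulam also lies above DMSO.

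After indisulam few of these transcripts were called different from DMSO, which does not show that the others were unchanged. Of 40 replication-dependent genes 1 rose and 0 fell, where 14.5% of all features were called higher and 12.4% lower, 26.9% in all. The indisulam libraries lay wholly above DMSO for 4 members and wholly below for 5, against 27.4% and 21% of all features. The median log2 fold change was 0.07, against 0.05 over all features, with 21 of the 40 above it. H3C14 // H3C15, with the 0 of DMSO replicate 3, had the highest value, 2.13, and was not called (limma adjusted p = 0.186). The gene that rose was H2AC18 // H2AC19 (0.31 ± 0.0962, limma adjusted p = 0.0277), a call lost without indisulam replicate 1 (0.0804), indisulam replicate 3 (0.0918), DMSO replicate 1 (0.115) or DMSO replicate 2 (0.0789). At an unadjusted p under 0.05, 2 were higher and 3 lower, edgeR called 0 higher and 1 lower and DESeq2 called 2 in all. Of the 9 replacement genes 2 rose, H2AJ and H2AX, and 0 fell, with no member lower at an unadjusted p under 0.05 and 2 called in all by edgeR and by DESeq2. H4C3 had the lowest value of the class, -1.05 ± 0.37 (limma adjusted p = 0.0503), and rested on indisulam replicate 1, without which it was -0.46 and not called (limma adjusted p = 0.14). H4C3 was called lower without indisulam replicate 2 (0.0478) or replicate 3 (0.015), and not without any other library. Indisulam replicate 1 was the lowest library of its group for 6 of the 9 tested H4 genes. Summed H4 values were 0.819 of DMSO after indisulam, at 1062 ± 193 after indisulam and 1296 ± 172 in DMSO, a difference within the spread of the libraries.

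Set against indisulam, pladienolide B libraries had 31 replication-dependent genes higher and 0 lower, where 34.7% of all features were called higher and 35.6% lower, 70.3% in all. They lay wholly above indisulam for 33 members and wholly below for 0, against 35.6% and 36.2% of all features. By edgeR and by DESeq2 31 were called, and at an unadjusted p under 0.05 31 were higher and 0 lower. The median log2 fold change was 0.92, and 0.50 with the same total per library, when 14 were higher and 0 lower. The largest were H3C1 at 1.71 ± 0.477 (limma adjusted p = 0.00572), H2BC3 at 1.56 ± 0.418 (limma adjusted p = 0.00427) and H4C11 at 1.52 ± 0.306 (limma adjusted p = 0.000533). H2BC3 had 40.1, 36.1 and 78.6 after pladienolide B, 14.7, 18.2 and 14.6 after indisulam and 18.4, 13.2 and 34.6 in DMSO. Of the replacement genes 7 were higher and 1, H3-3B, was lower. The 2 pladienolide B comparisons share their pladienolide B libraries, and the drugs were given at different times.

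Of 23 tested members of a list of histone mRNA 3-prime processing and decay factors, 11 rose and 8 fell after pladienolide B against DMSO, where 34.3% of all features were called higher and 35.5% lower. The share that fell was thus near that of all features, and the median log2 fold change of the list was 0.13. SLBP, the stem-loop binding protein, had 1233, 1466 and 1385 after pladienolide B, 4882, 5144 and 5218 after indisulam and 5115, 5429 and 5239 in DMSO. It fell by 1.95 on the log2 scale, with an SE of 0.0712 (limma adjusted p = 7.27e-11), and pladienolide B stood apart from all other libraries. LSM11, a subunit of the U7 snRNP, fell by 1.66, with an SE of 0.144 (limma adjusted p = 1.83e-07), to a mean of 414 ± 102 after pladienolide B, against 1290.1 ± 76.4 in DMSO. Its partner LSM10 had 3426 ± 346 after pladienolide B and 3585 ± 119 in DMSO and was not called (limma adjusted p = 0.415). SNRPB and SNRPD3, Sm proteins that the U7 snRNP shares with the spliceosome, rose by 0.99 and 0.79. NPAT, the coactivator of replication-dependent histone genes, fell by 0.87, with an SE of 0.132 (limma adjusted p = 4.59e-05), to 1215 ± 283 after pladienolide B, against 2185 ± 182 in DMSO. ZNF473, of the same list, went the other way and rose by 0.60, with an SE of 0.072 (limma adjusted p = 4.61e-06). It had 4286 ± 192 after pladienolide B and 2828 ± 220 in DMSO. LSM10, NPAT and ZNF473 were chosen for mention after their values were seen. Whether these levels bear on the histone transcripts was not tested.

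After indisulam 4 members of that list rose and 8 fell, where 14.5% of all features were called higher and 12.4% lower. TUT7, which adds uridines to histone mRNA before decay, rose by 0.74, and the cap-binding subunit NCBP2 by 0.43. Its partner NCBP1 fell by 0.65 and SRRT, which links the cap to 3-prime processing, by 0.59. SLBP was at -0.05 and not called (limma adjusted p = 0.648).

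Of 25 tested histone chaperones and deposition factors, 13 rose and 7 fell after pladienolide B, beside 34.3% and 35.5% of all features. CHAF1A, a subunit of the CAF-1 complex that deposits new H3 and H4 behind the fork, fell by 2.26 to 699.9 ± 96.2 after pladienolide B, against 3329 ± 219 in DMSO (limma adjusted p = 2.80e-10). HIRA, which deposits H3.3, fell by 1.04, to 1836 ± 159 after pladienolide B, against 3773 ± 191 in DMSO (limma adjusted p = 2.60e-08). SPTY2D1 rose by 1.38 and NPM1 by 0.72. After indisulam 3 rose (UBN2 by 0.57 and SPTY2D1 by 0.37 among them) and 8 fell, beside 14.5% and 12.4% of all features, with ASF1B at -0.52 and EP400 at -0.50. Of 29 S phase genes 16 rose and 10 fell after pladienolide B, beside 34.3% and 35.5% of all features, with DUT at 0.83, TK1 at 0.74, CCNE2 at -1.84 and UHRF1 at -1.64. After indisulam 0 rose and 11 fell, beside 14.5% and 12.4% of all features, with CDC45 at -0.99 and CDC6 at -0.83. At an unadjusted p under 0.05 0 were higher and 12 lower, edgeR called 12 in all and DESeq2 called 12. MACROH2A1, a histone variant outside the name pattern, rose by 0.60 after pladienolide B and CENPA, the centromeric H3, fell by 0.32. Against indisulam, pladienolide B had 11 higher and 8 lower of the processing list, 13 and 4 of the chaperones and 18 and 7 of the S phase genes, beside 34.7% and 35.6% of all features. Splits of this kind depend on scaling: with the same total per library 2 of the processing list were higher and 15 lower after pladienolide B, 4 and 14 of the chaperones, and 6 and 15 of the S phase genes.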

How the data were processed

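Poly(A)+ RNA of 9 MDA-MB-231 libraries was prepared with a stranded mRNA kit, per the labels' protocols. STAR 2.7.5a, DESeq2, SAMtools, Picard, FastQC and the build hg38 are listed, without roles, per the submitters' processing notes. How reads were counted, and with which strand setting, is not given in the sources used here. Per the labels and values, the deposited signal is a read count per feature divided by the authors with DESeq2 by 1 size factor per library. All values (100% within a tolerance of 0.01) were whole multiples of the value of 1 read, so whole reads were recovered. From these, edgeR 4.0.16 with TMM called 11685 features for pladienolide B against DMSO, 4471 for indisulam against DMSO and 11729 for pladienolide B against indisulam.

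Groups were compared with limma 3.58.1 under R 4.3.3. Values entered as log2(value + 1), 1 linear model held the group means of all 9 libraries, and variances were moderated along the mean. Tests were two-sided, with Benjamini-Hochberg adjustment over the 16846 features with a mean of at least 10. Fold changes are on this scale, where the added 1 shrinks changes of low genes, while a library at or near 0 can enlarge them. The fit was tested on simulated data. Whether replicas were separate cultures is not stated in the labels, and p-values cover the spread of these libraries alone, which may be technical. All pairs of libraries of a group differed by more than sampling noise (chi-square per feature at least 8.74). Without the strand setting, reads of H2AC15 and H2BC15, of H4C9 and H2BC12, and of H1-10 and H1-10-AS1, which overlap, may be shared. Near-identical copies are uncertain.

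Exons and stem-loops come from GENCODE 29 transcripts and promoters from RefSeq (GRCh38.p14), matched by symbol. Members, classes and gene lists were chosen with earlier results of these data known, and the list genes were fixed by name. Genes named are the 8 replication-dependent members with the highest mean, the replacement members, except 1 that is not reported here, and the called members with the largest change per class and direction (at most 3). From each list at most 2 called genes per direction are named. H2BC21, H2AC12 and H4C1, and the features outside both main classes, were chosen after their values were seen. Alternatives tried were 2 pseudocounts (0.5 and 5), 2 filters, 3 scalings, edgeR, DESeq2 1.42.0, fits on 2 groups, a replicate block, each library left out and members that overlap another feature left out.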

Additional observations from a re-analysis of the deposited data

How the results depend on the processing

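With the same total per library, pladienolide B against DMSO gave 12 replication-dependent genes higher in place of 30, and 3 replacement genes higher and 3 lower in place of 6 and 1. Against indisulam it gave 14 in place of 31, and 4 replacement genes higher and 2 lower in place of 7 and 1. Among all called features the share called higher was then 23.1% in place of 49.1% (pladienolide B against DMSO), 26.2% in place of 49.3% (pladienolide B against indisulam) and 40.3% in place of 53.8% (indisulam against DMSO, where TMM gave 42.9%). Quantile normalisation gave 2 replacement genes lower for pladienolide B against DMSO, 4 higher against indisulam, and 1 lower for indisulam against DMSO. A turn of sign was checked only for the genes named by rule. Among them the called differences of H1-10 (to -0.061 and -0.073) and H2AC6 (to -0.071) turned sign with the same total. That of H2AZ1 did with quantiles (to -0.093 and -0.045). The uncalled differences of H2BC4 and H4C3 against DMSO also did, at -0.062 and -0.016 with the same total. No replication-dependent gene was called lower after pladienolide B under any alternative tried.

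For indisulam against DMSO the count of replication-dependent genes called higher was 0 with TMM, the same total or edgeR with TMM and 2 with DESeq2 or 2 groups only. The count called lower was 1 with a pseudocount of 5, a mean of at least 50, TMM, edgeR with TMM or 2 groups only. Leaving out each library gave 0 to 1 higher and 0 to 2 lower, and 1 to 2 replacement genes higher with 0 lower. For pladienolide B against DMSO it gave 21 to 31 replication-dependent and 6 to 7 replacement genes higher. Against indisulam it gave 29 to 32 and 7. The causes were not tested.

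Same-numbered libraries showed weak signs of pairing, which the labels do not state, and the main fit had no block. Deviations of same-numbered libraries correlated at 0.00266 to 0.128 (9 pairs), those of differently numbered ones at -0.124 to 0.0450 (18 pairs). Pladienolide B library 2 correlated better with DMSO library 1 (0.0450) than with DMSO library 2. With the replicate number as a block, indisulam against DMSO gave 2 replication-dependent genes higher and 2 lower, and 1 replacement gene lower. The other counts under the block stayed within 1.5 times. Of the named genes' differences 3 gained a call with the block, all against DMSO. These were H2BC4 for pladienolide B (limma adjusted p = 0.0066), and H4C3 (0.00675) and H3-3A (0.0379) for indisulam. Without the filter on low values 47 replication-dependent genes were tested, with 26 higher and 0 lower for pladienolide B against DMSO, and the other 13 had no read.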

Other observations

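Some features outside the 2 main classes also had reads. H2BC20P, an H2B pseudogene (chr1:149849545-149850937) beside H2AC18 // H2AC19, had 365, 485 and 414 normalised read counts after pladienolide B, 236, 194 and 218 after indisulam and 189, 161 and 143 in DMSO. It rose after pladienolide B (log2 fold change 1.35 ± 0.155, limma adjusted p = 3.01e-06). H2BS1 also rose, by 1.35 ± 0.416 (limma adjusted p = 0.0103), on a mean of 21.8, and it overlaps HSF2BP. The features H2BP2 // H3-2 (-1.04 ± 0.39) and H2BP1 // H3P4 (-0.72 ± 0.23) fell, with limma adjusted p-values of 0.0289 and 0.0126.

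H1-10-AS1, an antisense neighbour of H1-10 (chr3:129316271-129326225), had 101, 70.9 and 67.2 after pladienolide B, 236, 244 and 171 after indisulam and 109.8, 124 and 85.6 in DMSO. It rose after indisulam by 1.02 ± 0.221 (limma adjusted p = 0.00419), where H1-10 itself was at 0.07 and not called, and was not called after pladienolide B. Of the germ line or other histone genes 8 of 12 had no read in any library. H2BE1 reached 17.2, H1-6 2.75, H2BW4P 14.0 and H2AZ1-DT 9.03 at most.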
